A study of Mus musculus with 8 samples.

Results

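Growth hormone (GH), insulin and insulin-like growth factor (IGF) genes were examined in RNA polymerase II (Pol II) ChIA-PET data from mouse liver. The set has 9 genes, chosen by name with earlier results of these data known, and with no threshold: Igf1, Igfals, Igfbp1, Igfbp2, Igfbp4, Irs2, Insr, Ghr and Socs2. All 9 were found among the 21887 protein-coding genes of the annotation and all 9 had signal in every experiment. In ChIA-PET, crosslinked chromatin is enriched with an antibody, fragments caught together are ligated by way of a linker, and both tags of each ligated piece are sequenced as a paired-end tag (PET). A PET end therefore marks DNA that came down with Pol II, and a PET whose ends lie apart marks a possible contact. The antibody, 8WG16, is directed at the repeat domain of the largest Pol II subunit.

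The mice were wild-type C57BL/6, 3 to 6 months old, kept in 12 h of light and 12 h of dark with free access to food. Livers were taken at ZT06, in the middle of the day, or at ZT18, in the middle of the night, and the chromatin of 3 to 7 livers was combined for each immunoprecipitation, so no value stands for 1 animal. The labels give 8 libraries in 3 experiments. Experiment 1 had 4 libraries (replicates 1 and 2 at each time) and experiment 3 had 2 (1 at each time), and both were crosslinked with 1.5 mM EGS and 1% formaldehyde. Experiment 2 had 2 libraries, 1 at each time, crosslinked with 1% formaldehyde alone. No column of the deposited table names a library or a time, so each experiment is 1 pool of its day and night libraries, the day against night comparison was not made, and there is no spread between replicates. Intervals are 95% and cover counting error only. Those computed on PET ends treat the 2 ends of a PET as independent, which makes them too narrow.

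In the liver, GH binds its receptor (Ghr), and signalling through JAK2 and STAT5 induces Igf1, the circulating growth mediator, and Igfals, the acid-labile subunit that holds IGF-1 in a long-lived serum complex. It also induces Socs2, which damps the GH receptor. IGF-binding proteins carry IGF-1 and limit its access to receptors. Insulin acts through its receptor (Insr) and the adaptor IRS2, which lead to AKT and the exclusion of FOXO factors from the nucleus. Igfbp1 and Irs2 are known FOXO targets that insulin represses and fasting raises.

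The sequences just before the starts of 4 of these genes are shown because they hold matches to textbook promoter elements or sites of the GH and insulin pathways. They are the 250 bases upstream of a start listed by RefSeq on GRCm38.p6. Capitals mark matches on either strand to TTCNNNGAA (the core that STAT factors bind), GTAAACA (a forkhead core), CAAAACA (part of the insulin response element described for Igfbp1) or TATAAA (a core promoter element). The Igfals window, for the second of its 3 listed starts, is chr17:24877981-24878230 on the plus strand. The Igfbp1 window is chr11:7197537-7197786 and the Igfbp4 window chr11:99040994-99041243, both on the plus strand, and the Irs2 window is chr8:11008930-11009179 on the minus strand.
Igfals: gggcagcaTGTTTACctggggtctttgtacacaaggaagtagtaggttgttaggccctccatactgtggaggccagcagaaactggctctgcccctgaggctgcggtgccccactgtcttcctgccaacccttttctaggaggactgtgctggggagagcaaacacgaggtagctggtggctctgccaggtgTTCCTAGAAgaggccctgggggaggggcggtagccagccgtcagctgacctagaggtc
Igfbp1: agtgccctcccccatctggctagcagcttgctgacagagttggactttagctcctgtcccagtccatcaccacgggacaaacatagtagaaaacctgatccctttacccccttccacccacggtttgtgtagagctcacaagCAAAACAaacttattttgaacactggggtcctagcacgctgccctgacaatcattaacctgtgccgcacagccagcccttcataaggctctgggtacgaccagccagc
Igfbp4: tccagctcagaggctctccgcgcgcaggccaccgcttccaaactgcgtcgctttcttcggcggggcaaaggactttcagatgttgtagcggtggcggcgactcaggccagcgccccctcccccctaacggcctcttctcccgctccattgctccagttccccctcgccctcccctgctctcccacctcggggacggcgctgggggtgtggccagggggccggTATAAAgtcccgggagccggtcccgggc
Irs2: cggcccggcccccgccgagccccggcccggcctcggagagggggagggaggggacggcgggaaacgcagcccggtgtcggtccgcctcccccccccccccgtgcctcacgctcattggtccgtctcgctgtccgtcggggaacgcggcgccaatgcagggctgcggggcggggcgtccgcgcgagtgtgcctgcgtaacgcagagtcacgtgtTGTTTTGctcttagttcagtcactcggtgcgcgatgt

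The Igfals window has a STAT core from 58 to 50 bases before the start, and a forkhead core from 242 to 236 bases before it on the other strand. The window of the first listed Igfals start also has a STAT core. STAT cores occurred in 7.02% of the 32851 listed promoters, and among 11 promoters of 7 members only in these 2. The CAAAACA core lies from 108 to 102 bases before the Igfbp1 start and, on the other strand, from 37 to 31 bases before the Irs2 start. It was in 5.56% of all promoters. The forkhead core was in 3.17% and TATAAA in 12.4% of all promoters. TATAAA lies from 28 to 23 bases before the Igfbp4 start, and its only other match among these promoters was in 1 Ghr window. GC content was 72.8% in the Irs2 window, 69.2% in that of Igfbp4 and 53.2% in that of Igfbp1, against a median of 52.4% over all promoters. These matches describe letters and do not show that a factor was bound. The table lists no promoter for Insr or Socs2.

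Over the gene and 2.5 kb either side, PET ends were counted per length and divided by the mean of the nuclear genome. This relative density is 1 where a gene holds as many ends as its length alone would give. The 9 genes had median densities of 5.56, 1.26 and 2.21 in experiments 1, 2 and 3, against 1.19, 1.17 and 1.39 over all protein-coding genes. Each gene's ends were also tested against the nuclear mean with a two-sided exact binomial test, Benjamini-Hochberg adjusted over all 21887 genes within an experiment. At an adjusted p under 0.05, 7 of 9 were higher in experiment 1, against 28.8% of all genes. In experiment 3, 8 of 9 were higher, against 41.3% of all genes. In experiment 2, 3 of 9 were higher, against 22.8%. No member was called lower. In these bulk livers, signal from fewer cells and less signal per cell cannot be told apart. Only Igfals and Igfbp4 passed in all experiments, or 2 of 9, against 10.2% of all genes, and 6 of 9 passed in both dual-crosslinked experiments, against 23.3%. Densities above 1 in all 3 experiments, without a test, were found for 7 of 9, against 45.0% of all genes. The test measures counts within a pool and not animals, and PETs with both ends in a gene count as 2 ends, which makes its p-values too small. For the same reason the intervals of densities and of start shares are too narrow, and separate intervals are not a test. In experiment 1, for example, the 130 ends of Igfbp4 came from 96 PETs. With read-1 ends alone, only Igfbp4 passed in all 3 experiments, against 4.66% of all genes.

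**Figure D1:**
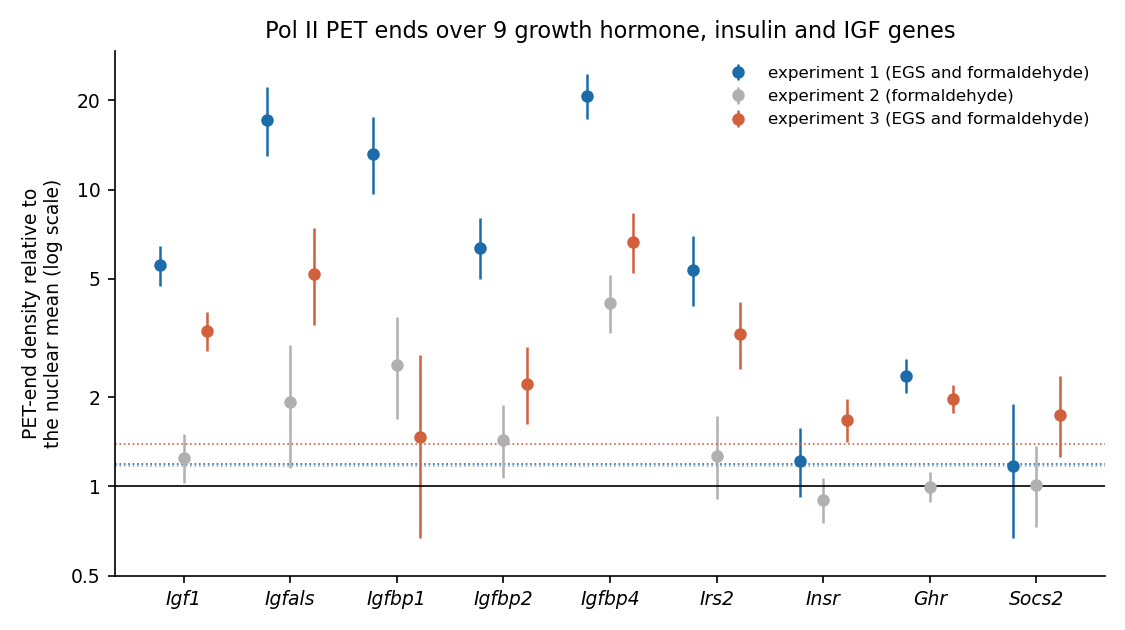
Relative density of PET ends (log scale, 1 is the nuclear mean) over each of the 9 genes and 2.5 kb either side, by experiment. Bars are 95% exact Poisson intervals and dotted lines the medians of all protein-coding genes. With this window Igfbp4 has the highest point in each experiment, with an interval that overlaps that of Igfals in experiments 1 and 3, and experiment 2 lies lowest for all genes but Igfbp1.

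Among the secreted components, Igfbp4, a binding protein that keeps IGFs from their receptor, had the highest density in every experiment over the gene and 2.5 kb either side. It lies on chromosome 11 from 99040005 to 99052655 and held 130, 79 and 74 ends in experiments 1, 2 and 3. Its relative density was 20.7 (17.3 to 24.5), 4.14 (3.28 to 5.16) and 6.66 (5.23 to 8.36), with adjusted p of 9.2e-117, 2.2e-22 and 3.4e-33 by the exact binomial test. This placed it at percentiles 99.4, 99.4 and 99.0 of all protein-coding genes. No other member stood above percentile 99 in more than 1 experiment. Its place above Igfals depended on the window and the PETs counted. In experiment 1 Igfals had 24.9 and Igfbp4 24.4 without the 2.5 kb, and with PETs between chromosomes alone they had 13.0 and 12.8. In experiment 3 Igfals had 6.05 and Igfbp4 5.47 with 5 kb either side. With PETs between chromosomes alone, Igfbp4 had 2.60 in experiment 2.

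Igfals lies on chromosome 17 from 24877844 to 24882011 and held 56, 19 and 30 ends in experiments 1, 2 and 3. Its density was 17.1 (12.9 to 22.2), 1.92 (1.15 to 2.99) and 5.20 (3.51 to 7.42), the second highest of the set in experiments 1 and 3. Nubp2 begins 600 bp beyond its higher coordinate, and 4401 bp of the Igfals window are also covered by the windows of neighbours. These held 23, 10 and 16 of the ends. Without them the density was 19.4 in experiment 1 and 4.66 in experiment 3, and in experiment 2 it was 1.75, which no longer passed (exact binomial test, adjusted p = 0.286). By the same test, the Igfals call in experiment 2 was near the threshold as reported (adjusted p = 0.0409) and with 5 kb either side (0.0451). It was lost without the 2.5 kb (0.113), with read-1 ends (0.198) and with PETs between chromosomes (0.183).

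Igfbp1, the insulin-repressed binding protein, ranked high in experiments 1 and 2 and near the middle of all genes in experiment 3. On chromosome 11 from 7197787 to 7202546, it held 46, 27 and 9 ends in experiments 1, 2 and 3. Its relative density was 13.2 (9.68 to 17.6), 2.56 (1.69 to 3.72) and 1.46 (0.670 to 2.78), at percentiles 98.4, 97.3 and 54.6. The dual-crosslinked experiments 1 and 3 thus gave its highest and its lowest value, and their intervals do not overlap. By the exact binomial test, its adjusted p-values were 4.1e-33, 0.000257 and 0.444. In experiment 2 the call was lost with read-1 ends alone (exact binomial test, density 1.71, adjusted p = 0.388). In experiment 3 it passed with 5 kb either side (exact binomial test, density 1.94, adjusted p = 0.0286), and with read-1 ends its density was 2.28. Without the 2.5 kb, Igfbp1 had 20.03 and 4.27 in experiments 1 and 2. The livers of the experiments, their times of collection and their library preparation cannot be told apart in these pools.

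Igf1 spans chromosome 10 from 87858265 to 87937047, with the nearest other protein-coding gene, Pmch, 154025 bp away. It held 166, 113 and 176 ends, for densities of 5.56 (4.74 to 6.47), 1.25 (1.03 to 1.5) and 3.34 (2.86 to 3.87) in experiments 1, 2 and 3. It passed in experiments 1 and 3 (adjusted p of 2.3e-64 and 3.6e-38) but not in experiment 2 (exact binomial test, adjusted p = 0.0689). Igfbp2, another IGF-binding protein made by the liver, had 75, 51 and 46 ends on chromosome 1 from 72824480 to 72852474. Its densities were 6.37 (5.01 to 7.99), 1.43 (1.06 to 1.88) and 2.21 (1.62 to 2.95), and like Igf1 it passed in experiments 1 and 3 only.

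Over the whole window, the receptors lay below the secreted components in experiments 1 and 2, and above Igfbp1 in experiment 3. In experiment 2 their intervals overlapped those of Igf1 and Igfbp2, and in experiment 3 that of Igfbp1. These densities average over windows of unlike length. Within 1 kb of its listed starts Ghr had 38.3, 5.27 and 14.0, above Igf1, Igfals, Igfbp1 and Igfbp2 in each experiment. Most of those start intervals overlap that of Ghr. Ghr, at chromosome 15 from 3317755 to 3583352 the longest member, held 228, 291 and 336 ends, the most of the set in each experiment. Per length this gave 2.36 (2.07 to 2.69), 0.995 (0.884 to 1.12) and 1.97 (1.77 to 2.19). Insr, on chromosome 8 from 3150922 to 3279649, held 58, 130 and 141 ends, or 1.22 (0.924 to 1.57), 0.899 (0.751 to 1.07) and 1.67 (1.41 to 1.98). Ghr passed in experiments 1 and 3, and Insr passed only in experiment 3 (exact binomial test, adjusted p = 1.7e-07). With read-1 ends Insr also passed in experiment 1 (exact binomial test, density 1.59, adjusted p = 0.0394). In experiment 1 the intervals of the receptors do not overlap, and in experiment 3 they do.

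Of the intracellular regulators, Irs2 was the higher. It lies on chromosome 8 from 10984681 to 11008929 and held 56, 40 and 60 ends, for densities of 5.37 (4.06 to 6.97), 1.26 (0.904 to 1.72) and 3.26 (2.49 to 4.19). It passed in experiments 1 and 3. Without the 2.5 kb its density in experiment 1 was 3.35. Socs2, on chromosome 10 from 95383903 to 95417321, held 16, 42 and 42 ends, for 1.17 (0.668 to 1.90), 1.01 (0.729 to 1.37) and 1.74 (1.25 to 2.35). It passed in experiment 3 alone (exact binomial test, adjusted p = 0.00377).

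In experiment 1 the order was Igfbp4, Igfals, Igfbp1, Igfbp2, Igf1, Irs2, Ghr, Insr and Socs2. The intervals of Igfbp4 and Igfals overlap, as do those of Igfals and Igfbp1, those of Igfbp2, Igf1 and Irs2, and those of Insr and Socs2. Irs2 and Ghr are separated by theirs, as are Igfbp1 and Igfbp2, and Ghr and Insr. In experiment 3 the order was Igfbp4, Igfals, Igf1, Irs2, Igfbp2, Ghr, Socs2, Insr and Igfbp1, and each neighbouring pair in that order had overlapping intervals. In experiment 2 Igfbp4 was followed by Igfbp1 and Igfals, and the remaining 6 lay between 0.899 and 1.43. Crosslinking was compared over 2 pools against 1, where a two-sided exact permutation test cannot give a p below 0.333. Crosslinking and experiment cannot be told apart, since formaldehyde alone was used in 1 experiment.

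The density of each gene was also set against its own flanks, 10 to 100 kb away on either side. The median ratios in experiments 1, 2 and 3 were 4.99, 1.28 and 2.04. Igfbp1 had the highest ratio in experiment 1, 12.1, and Igfbp4 the highest in experiments 2 and 3, 4.13 and 4.01. Insr stood in flanks that were poor in ends, with flank densities of 0.421, 0.519 and 0.556. Against these, its ratios were 2.89, 1.73 and 3.01, higher than its densities against the nuclear mean. The flanks of Ghr had a density of 4.61 in experiment 1, above the gene, and they hold Ccdc152 and Selenop, the gene of a plasma selenium carrier. Without the spans of other genes those flanks had 1.58 and the Ghr ratio was 1.49. For Socs2 the ratios were 1.00, 0.984 and 1.23, near 1 in experiments 1 and 2. Leaving out the spans of other genes also moved other ratios of experiment 1, to 18.7 for Igfbp4, 18.2 for Igfbp1, 5.13 for Insr and 1.56 for Socs2, so that Igfbp4 and not Igfbp1 was highest. In experiment 3 it moved the ratio of Igfals from 2.47 to 4.23.

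The linker sequence splits each experiment into 2 subsets, and the sources used here do not tie these to libraries or times. They are shown as values and were not used as groups. For Igf1 the subsets of experiment 1 had densities of 5.64 (4.39 to 7.14) and 5.50 (4.46 to 6.71), and those of experiment 3 had 3.23 (2.56 to 4.01) and 3.43 (2.78 to 4.2). The intervals of the Igf1 subsets thus overlap within each of these experiments. In experiment 2 the subsets differed for Igfbp4, with 8.69 (6.15 to 11.9) for ATGT and 2.79 (2.00 to 3.78) for TAAG, and for Igfbp2, with 2.94 (1.88 to 4.37) and 0.982 (0.647 to 1.43). These intervals do not overlap. For Igfbp1 in experiment 3 the subsets had 5 and 4 ends, so the low count was seen in both.

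Where the signal lay within the genes was then examined, for the 7 members with a listed start. Windows of 1 kb either side of the listed starts made up 3.82% of their length. In experiments 1, 2 and 3 they held 31.3% (28.0 to 34.7%), 18.1% (15.1 to 21.3%) and 15.6% (13.0 to 18.4%) of the ends. Over 17492 protein-coding genes with a listed start, such windows made up 4.30% of the length and held 21.3%, 8.21% and 12.8% of the ends. The members were unlike: Igf1 and Ghr lay below the share of all genes in each experiment. Igfbp4 alone gave 50 of the 237, 50 of the 112 and 31 of the 114 start ends of the members. The share without it was not computed. The median relative density at the members' starts was 35.0, 3.70 and 7.11 in experiments 1, 2 and 3, against 2.80, 1.39 and 2.38 over all genes. In the rest of the genes it was 4.97, 1.23 and 2.62, against 1.02, 1.08 and 1.24 over all genes.

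**Figure D2:**
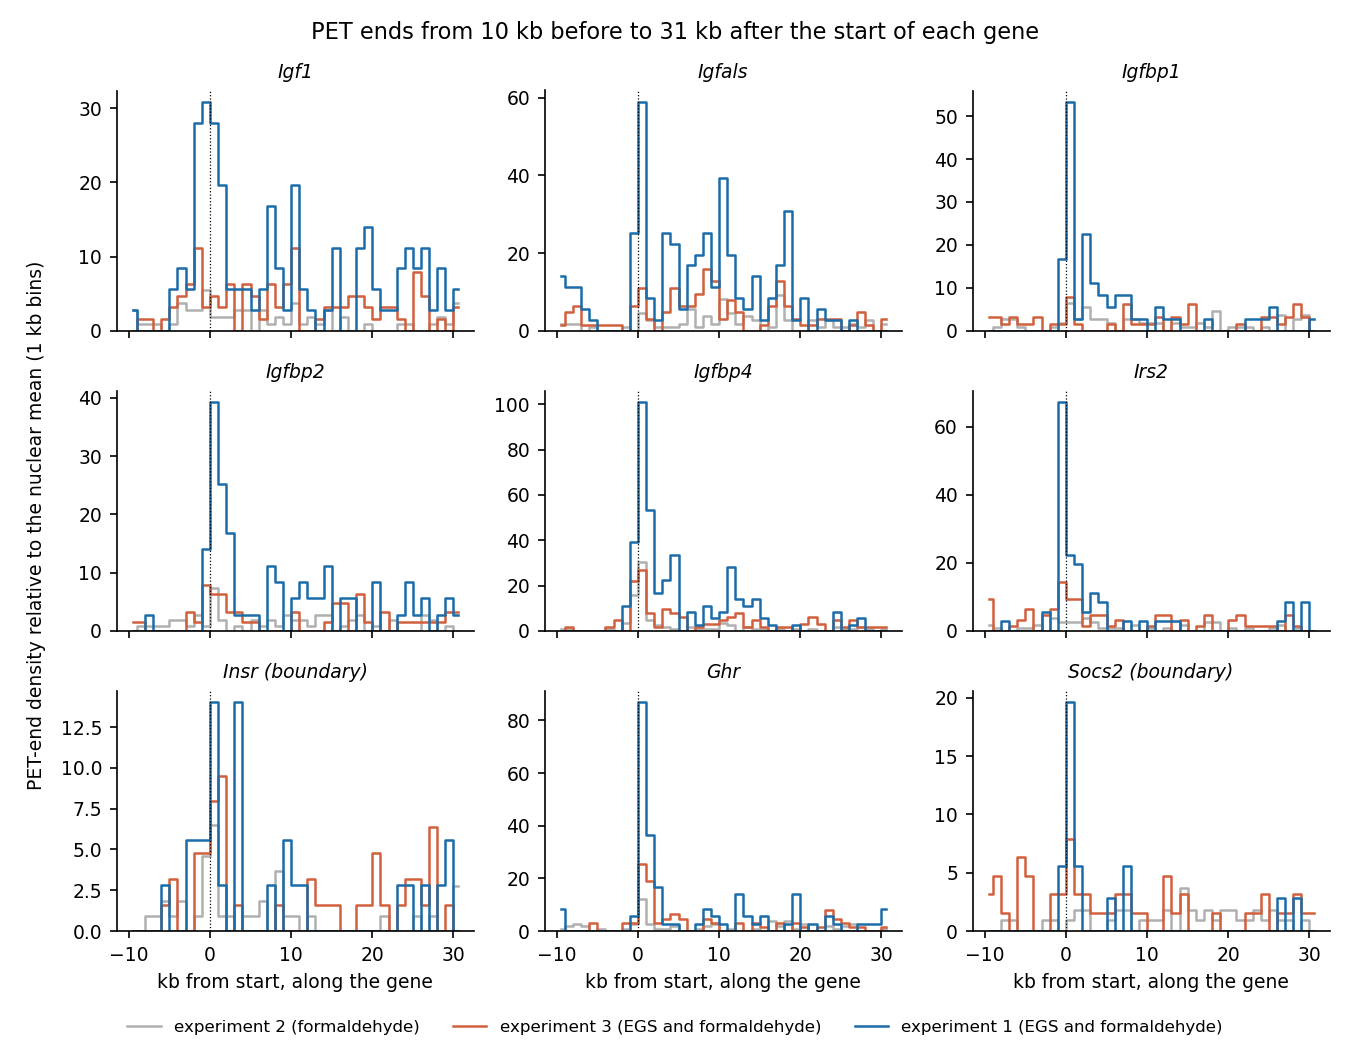
Relative density of PET ends in 1 kb bins from 10 kb before to 31 kb after the start listed farthest upstream, along the direction of each gene; for Insr and Socs2, which have no listed start, zero is the boundary with the higher coordinate and the axis runs to lower coordinates. Each panel has its own vertical scale. In experiment 1 the highest bin of each gene touches or lies next to the start or boundary, for Insr together with a bin of equal height farther in. Igf1 and Igfbp2, among others, also have ends spread along the gene. Nubp2 and Spsb3 lie within the plotted stretch after Igfals.

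Igfbp4 had the densest start. Within 1 kb of it lay 50, 50 and 31 ends in experiments 1, 2 and 3, a relative density of 70.1 (52.0 to 92.4), 23.1 (17.2 to 30.5) and 24.6 (16.7 to 34.9). These are at percentiles 99.5, 99.9 and 99.5 of all genes with a listed start. In experiment 2 the start held 63.3% of the Igfbp4 ends. The densest 1 kb was the same stretch in experiments 1 and 2, on chromosome 11 from 99041005 to 99042004, with 42 ends in each. This stretch begins inside the promoter sequence shown above, so in the single-crosslinked pool, where the other starts had densities between 2.55 and 5.27, the signal of Igfbp4 was gathered there.

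Ghr and Irs2 had far denser starts than remainders in experiments 1 and 3. The Ghr starts had densities of 38.3 (28.3 to 50.8), 5.27 (3.22 to 8.14) and 14.0 (9.53 to 19.9). The rest of the gene had 1.89, 0.938 and 1.81. At its starts Ghr stood at percentiles 97.6, 90.7 and 95.8 of all genes, and in the rest at 80.2, 35.3 and 79.4. The Irs2 start had 44.9 (30.7 to 63.3), 2.77 (1.02 to 6.04) and 11.9 (6.66 to 19.6), against 2.47, 1.15 and 2.62 in the rest, which are at percentiles 86.7, 58.3 and 93.0. Of the 56 Irs2 ends in experiment 1, 32 lay within 1 kb of the start.

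The Igfbp1 start had 25, 9 and 6 ends, for densities of 35.0 (22.7 to 51.7), 4.16 (1.90 to 7.90) and 4.76 (1.75 to 10.4). In experiment 3, where Igfbp1 was low as a whole, 6 of its 9 ends were within 1 kb of the start and the rest of the window had a density of 0.614 (0.127 to 1.79). The Igfals starts had 31.9 (21.9 to 44.8), 2.55 (1.10 to 5.02) and 7.11 (3.79 to 12.2). In experiment 1 the densest 1 kb of Igfals, with 22 ends from 24877944 to 24878943, covers the promoter sequence shown above. In experiment 2 it lay inside Nubp2, with 7 ends, and in experiment 3 across the gap between the genes, with 9. The Igfbp2 starts had 27.0, 3.50 and 7.10, against 4.38, 1.23 and 1.74 in the rest.

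Igf1 held signal along its length. Its start had 29.4 (18.2 to 45.0), 3.70 (1.60 to 7.29) and 3.97 (1.29 to 9.26) in experiments 1, 2 and 3. The rest of the gene had 4.97 (4.2 to 5.85), 1.19 (0.971 to 1.44) and 3.32 (2.84 to 3.86). In experiment 3 the listed start and the remainder thus overlapped, and 2.84% of the ends lay at that start. The listed start lies inside the annotated gene, downstream of its boundary with the lower coordinate. Within 1 kb of that boundary, a part of the remainder, experiment 3 had 7.14 (3.27 to 13.6), with an interval overlapping both. In experiments 1 and 2 the boundary had 9.81 and 3.24, below the listed start. The densest 1 kb of experiment 3, from 87858865 to 87859864, lay between boundary and listed start, with 9 ends (density 14.3). When the Igf1 span was divided into 4 equal parts from the start side, experiment 1 had densities of 10.5, 6.69, 3.99 and 1.42, so the signal declined along the gene. Experiment 3 had 4.35, 3.14, 3.39 and 2.74, with the lower limit of each part above 1. Neither trait was particular to Igf1. In experiment 1 Ghr (4.43, 2.20, 1.82 and 1.10) and Igfbp2 (12.8, 6.41, 4.41 and 2.80) also declined, as did Irs2. In experiment 3 each part of Ghr also had a lower limit above 1. For Igf1, the values of experiment 2 follow. Experiment 2 had 2.02 in the part with the start and between 0.892 and 0.986 in the others. The remainder of Igf1 stood at percentiles 95.2, 62.7 and 96.6 of all genes. In experiment 1 the remainders of Igfbp4 (14.3), Igfals (10.3) and Igfbp1 (7.59) were denser. In experiment 3 those of Igfbp4 (4.36) and Igfals (4.31) were denser. The Igfals remainder is mostly the stretch shared with the windows of neighbours. Of its 56 ends in experiment 1, 33 lay at its starts and 23 in that stretch. Of its 30 ends in experiment 3, 13 and 16 did, so this remainder cannot be credited to Igfals alone.

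Insr and Socs2 were examined at their annotated boundaries. Within 1 kb of the boundary with the higher coordinate, Insr had 7, 12 and 8 ends, for densities of 9.81 (3.94 to 20.2), 5.55 (2.87 to 9.69) and 6.35 (2.74 to 12.5). All lie above 1, although Insr as a whole passed in 1 experiment. At its other boundary Insr had 1, 5 and 0 ends. Socs2 had 9, 1 and 7 ends at the boundary with the higher coordinate, or 12.6 (5.77 to 23.9), 0.462 (0.0117 to 2.58) and 5.56 (2.23 to 11.4). In experiment 1, 9 of its 16 ends lay there. So in the dual-crosslinked experiments Socs2 had a dense boundary within a gene that did not pass as a whole in experiment 1, and in experiment 2 no such density was detectable.

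**Figure D3:**
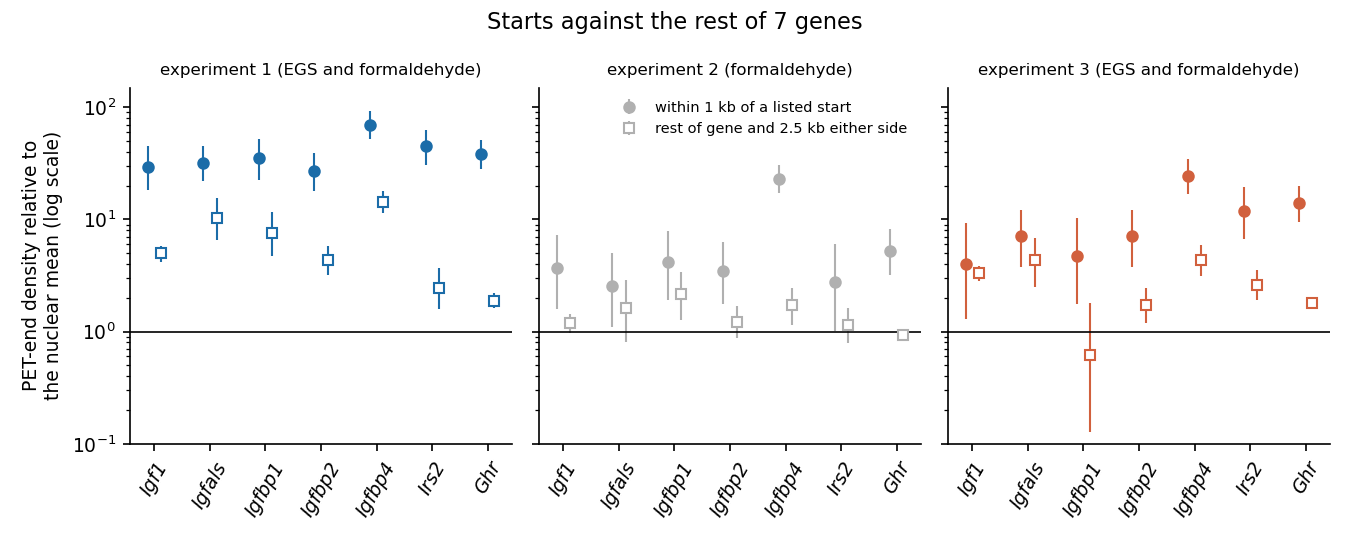
Relative density (log scale) within 1 kb of the listed starts (filled circles) and in the rest of the gene and 2.5 kb either side (open squares) for 7 genes, by experiment, with 95% exact Poisson intervals. In experiment 1 the 2 intervals are separate for each gene, while those of Igf1, Igfals and Igfbp1 overlap in experiment 3.

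PETs on one chromosome with 1 end over a member and the other 8 kb to 1 Mb away numbered 14, with 3, 1 and 10 in experiments 1, 2 and 3. They touched 7 of 9 members, against 24.5% of all protein-coding genes with at least 1 such PET. Among genes with 100 or more ends in all, it was 7 of 8 members against 43.9% of genes. With 2 or more such PETs there were 5 of 9 members, against 7.67% of all genes. Per 1000 ends over the gene, members had 3.61 (0.744 to 10.6), 1.26 (0.0320 to 7.03) and 10.9 (5.25 to 20.1) in experiments 1, 2 and 3. Over all protein-coding genes, counting a PET once for each gene it touches, the values were 2.91, 1.12 and 4.72. Only in experiment 3, with 10 PETs, was the members' lower limit above the value of all genes. Each contact below is 1 PET, so none can be compared between groups.

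Igfals was the only member with contacts from more than 1 experiment to nearly the same place. In experiment 1, a PET joined 24880900, in Igfals, with 24849465, and in experiment 3 a PET joined 24877585, which is 259 bp from a listed Igfals start, with 24850378. Both far ends lie within Hagh, which encodes a glyoxalase. That of experiment 1 also lies within Fahd1, which encodes a mitochondrial enzyme. The far ends of experiments 1 and 3 are 837 and 76 bp from a listed start of Fahd1. They lie within 1 kb of each other, over distances of 31435 and 27207 bp. Fahd1 itself was dense, with 45.1, 5.92 and 9.67 in experiments 1, 2 and 3. Contacts of 2 experiments with far ends within 1 kb occurred for 0.224% of all genes (49 of 21887). The distance of 1 kb between far ends was set with earlier results known, so the pair is a description.

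Igfbp4 and Irs2 each had 2 contacts, all in experiment 3 and all from near their starts. The Igfbp4 ends lay 518 and 444 bp from its start. Their partners were in Rara, the gene of retinoic acid receptor alpha, at a distance of 69556 bp, and in Rapgefl1 at 191214 bp. The Irs2 ends lay 545 and 1043 bp from its start. Their partners lay 151687 and 130394 bp away, both on the lower-coordinate side, beyond the far end of the gene and in DNA without a protein-coding gene.

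Igf1 had 3 contacts in experiment 3. In 2 of them both ends lay in the gene, 35632 and 21148 bp apart, and the third joined a point 1252 bp outside the gene with DNA 152843 bp away that holds no protein-coding gene. Igfbp2 had 1 contact, from 138 bp off a start to intergenic DNA 89316 bp away, beyond Igfbp5. Insr had 1 in each experiment, at 143905, 55938 and 957684 bp, to 3 different places without a protein-coding gene. Ghr, with 855 ends the deepest member, had 1 contact, to a point in Oxct1 at 667898 bp. No contact was seen for Igfbp1 among 82 ends or for Socs2 among 100 ends, which allows up to 36.6 and 30 per 1000 ends. A single PET joined 2 members, Insr and Igf1, which are on different chromosomes.

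**Figure D4:**
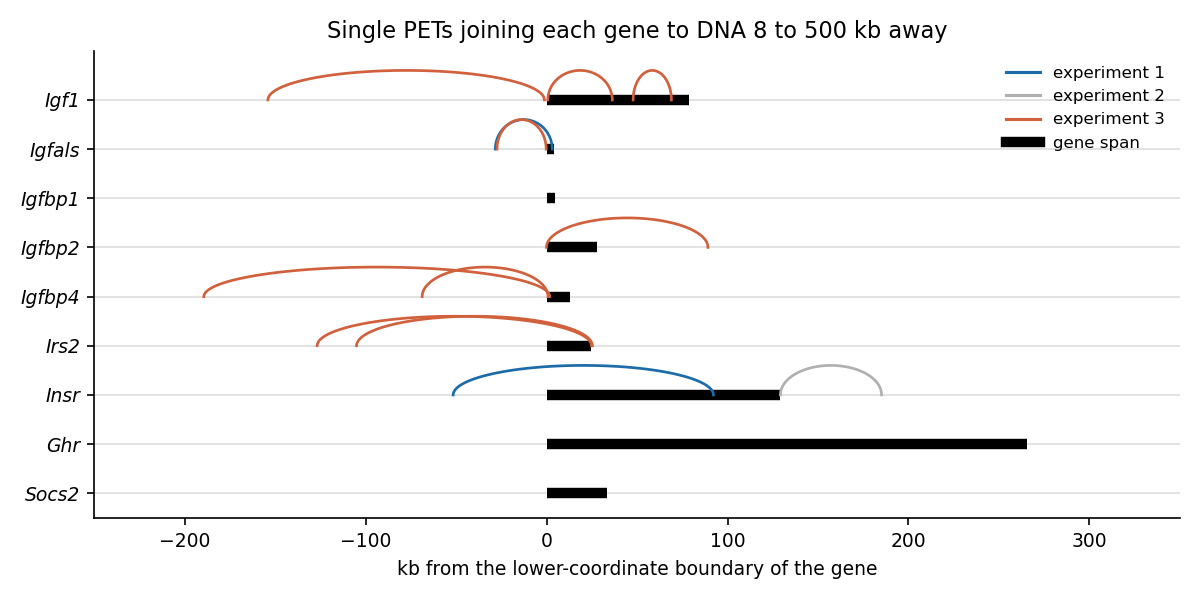
Each arc is 1 PET joining a member with DNA 8 to 500 kb away; black bars are gene spans to scale and the axis gives kb from the boundary with the lower coordinate. A further 2 PETs, of Ghr and Insr, exceed 500 kb and are not drawn. The Igfals arcs of experiments 1 and 3 end at nearly the same place, and both Irs2 arcs run across the gene.

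Most PETs with an end over a member joined it to another chromosome, as did most PETs of the pools. In experiments 1, 2 and 3 these were 70.6% (67.0 to 74.1%), 88.2% (85.7 to 90.5%) and 80.4% (77.5 to 83.1%) for the members. Over all PETs touching a protein-coding gene they were 75.1%, 89.7% and 82.9%, and over all nuclear PETs 73.1%, 88.7% and 80.2%. The share with ends at most 8 kb apart was 25.5% (22.2 to 28.9%), 7.03% (5.29 to 9.11%) and 12.6% (10.4 to 15.1%). Over all PETs touching a protein-coding gene it was 20.4%, 5.12% and 11.9%. The share of the members was higher than that of all genes beyond its interval in experiments 1 and 2, and not in experiment 3. Igfbp4 had the highest shares in experiments 1 and 2, 36.5% and 25.4%, and gave 35 of 169 and 16 of 52 such PETs. The share without Igfbp4 was not computed. Over all nuclear PETs it was 22.5%, 6.23% and 14.8%, within the members' intervals in each experiment. When only PETs between chromosomes were counted, the members' median density in experiment 1 was 4.03.

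Other genes of the axis were taken from lists. Of 12 genes of GH receptor signalling, 8, 3 and 12 were higher than the nuclear mean in experiments 1, 2 and 3, with medians of 2.09, 1.15 and 2.05. Over all genes, as above, 28.8%, 22.8% and 41.3% were higher and the medians were 1.19, 1.17 and 1.39. The highest was Socs3, a cytokine-induced feedback inhibitor, with 9.39, 3.70 and 6.00, which passed in all experiments (exact binomial test, adjusted p of 2.3e-18, 2.0e-09 and 1.2e-14). Cish, a STAT5 target that also feeds back on cytokine receptors, had 12.1, 1.08 and 4.28 and passed in experiments 1 and 3. Socs2, of the same family, thus lay below both in experiments 1 and 3. The lowest were Ptpn11, a phosphatase of receptor signalling, with 1.11, 1.14 and 1.49, and Stat5a with 1.37, 0.990 and 1.75.

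Of 23 genes of insulin and IGF receptor signalling, 13, 9 and 23 were higher in experiments 1, 2 and 3. Over all genes, 28.8%, 22.8% and 41.3% were higher. The medians of the list were 1.71, 1.15 and 1.81. The highest were Shc1, an adaptor, with 4.77, 1.96 and 3.66, and Gsk3a, a kinase that AKT inhibits, with 6.15, 1.01 and 2.28. The lowest were Mtor, with 1.06, 1.05 and 1.29, and Grb14, which inhibits the insulin receptor, with 1.17, 1.03 and 1.31. Of these 4, only Shc1 lay above Irs2 in experiment 3 and only Gsk3a in experiment 1.

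Of 8 other IGF ligands, binding proteins and their regulators, 1 was higher in experiment 1, and 3 in each of experiments 2 and 3. Over all genes, 28.8%, 22.8% and 41.3% were higher in experiments 1, 2 and 3. The medians of these 8 were 1.16, 1.40 and 1.73. Igfbp3, which lies 3540 bp from Igfbp1, had 2.53, 1.60 and 1.76 and was the 1 that passed in experiment 1. Igfbp6 had 1.90, 1.34 and 1.85 and passed in none. Pappa2, a protease that cleaves IGF-binding proteins, had 1.05, 1.38 and 1.16. Stc2, an inhibitor of such proteases, had 0 ends in experiment 1, where it was called lower, and densities of 0.947 and 1.73 in the others. Igfbp1, Igfbp2 and Igfbp4 all lay above the 4 binding proteins of this list in experiment 1. In experiment 2 Igfbp2 (1.43) lay below Igfbp3, and in experiment 3 Igfbp1 (1.46) lay below all 4.

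Of 7 hormone genes whose products come from other organs, none was higher or lower in any experiment by the exact binomial test with adjustment over all genes. Over all genes, 28.8%, 22.8% and 41.3% were higher in experiments 1, 2 and 3. The medians of the 7 hormone genes were 0.794, 1.23 and 1.17. Gh itself had 1.99, 1.31 and 1.69 from 6, 12 and 9 ends, and Sst 1.24, 1.23 and 1.17 from 3, 9 and 5. Ins2 had 0.462, 0.457 and 1.05 from 1, 3 and 4 ends, and Prl 1.11, 0.732 and 1.26 from 5, 10 and 10. The interval of Gh in experiment 1 was 0.731 to 4.34. With so few ends a difference from the nuclear mean could hardly be called, so the lack of calls does not show a density near 1. Of 6 genes under GH control in liver, 3, 3 and 4 were higher in experiments 1, 2 and 3, against the same shares of all genes. The medians of these 6 were 5.69, 1.33 and 2.97. Bcl6, a repressor that opposes STAT5 at many of its targets, held 220, 102 and 127 ends, for densities of 21.4, 3.27 and 7.00. Igfbp4 had 20.7, 4.14 and 6.66. Onecut1, a liver transcription factor, had 10.4, 1.38 and 5.63. The lowest were Lepr, with 1.01, 0.95 and 0.738, and Fgf21, a fasting hormone, with 0.850, 0.560 and 1.68.

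**Figure D5:**
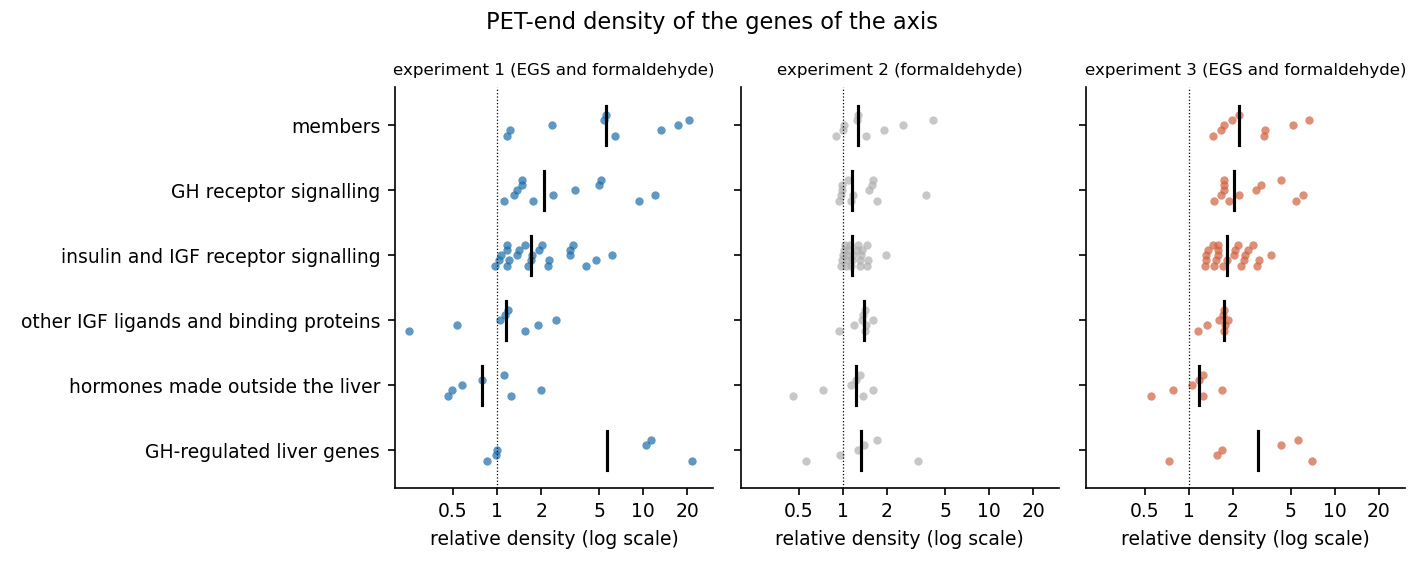
Relative density (log scale) of each gene in the 9-gene set and in 5 lists of the same axis, by experiment; black bars are medians and the dotted line is the nuclear mean. Stc2, with 0 ends in experiment 1, is drawn at 0.25. Hormone genes of other organs lie between 0.457 and 1.99, while the set and the GH-regulated genes reach above 20 in experiment 1.

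By distance in log2 density over the 3 experiments, among 2476 genes with at least 50 ends in each, the genes most like Igfbp4 were Hpd (21.8, 3.83 and 6.68; distance 0.14) and Ddx5 (20.3, 3.68 and 6.54; distance 0.17). Those most like Igfals were Mien1 (distance 0.33) and Etnk2 (0.34). For Igfbp1 they were Zbtb37 (0.89) and Kyat3 (1.05). Genes with as few ends as Igfals or Igfbp1 could not be candidates, and the distances rest on 3 pools.

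The pools held 474478, 1438866 and 840210 PETs in experiments 1, 2 and 3. The tissue label was checked on marker genes. Of 6 hepatocyte markers, 5 passed as higher in all experiments, against 10.2% of all genes. The medians of the 6 were 49.4, 7.60 and 10.6. Serpina1a, one of a family of near-identical copies, had 4.94, 0.302 and 0.933. The medians of 5 Kupffer cell markers were 0.846, 1.45 and 0.786, those of 5 endothelial markers 1.13, 1.22 and 1.64, of 5 stellate cell markers 1.07, 1.31 and 1.17, of 5 cholangiocyte markers 1.79, 1.33 and 1.73, and of 5 lymphocyte markers 0.880, 1.2 and 1.63. Among these, Sox9 passed as higher in all 3 experiments, with 5.58, 2.10 and 4.67. Which cells gave the signal of a member was not tested.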

How the data were processed

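The members and lists were chosen with earlier results of these data known. The deposited data are 1 table without a header, 1 line per PET, holding its experiment and linker, where its 2 tags map, and for tags of one chromosome the span between them. The submitters' processing notes name Bowtie2 and mm10 without a role; the sources used here give no duplicate removal or filter. Positions were used as deposited, and mm10 is the GRCm38 assembly of the RefSeq gene table. PETs with a mitochondrial end were left out, leaving 474466, 1438852 and 837971 in experiments 1, 2 and 3.

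Relative density is the number of ends in a gene's span widened by 2.5 kb, divided by those expected from length, with the nuclear length taken from the first to the last end of each chromosome. Counting intervals are exact Poisson for densities and rates and exact Clopper-Pearson for shares. PETs come from amplified DNA without molecular identifiers, so intervals cover counting error only. Those on ends are too narrow where both ends of a PET lie in the same gene. A count of 0 allows 3. The binomial test was tested on simulated data. The simulated ends were drawn independently, as the test assumes, so the effects of paired ends, amplification and uneven capture were not covered. The design's edgeR fit of ZT18 against ZT06 was not run, since no column names a library. Python 3.11.15, SciPy 1.17.1, NumPy 2.4.6 and pandas 2.3.3 were used. All members are named, as are up to 4 genes of each list, those with the highest and lowest density over all PETs. Marker lists are described by their medians.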

Additional observations from a re-analysis of the deposited data

How the results depend on the processing

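Of 189 values of single members under other settings, 177 kept their direction and their side of the threshold, 5 lost significance, 3 gained it and 4 changed direction. None of the 4 had been called: Insr in experiment 2 had 1.06 with read-1 ends, Socs2 in experiment 1 had 0.876 with read-1 ends and 0.999 with PETs between chromosomes, and Socs2 in experiment 2 had 0.95 with PETs between chromosomes. The 177 include values that could not change. Only Igfals and Igfbp1 share part of their window with neighbours, so leaving that part out repeats the values of the other members. The 177 of 189 therefore overstate how stable the values are. The number of members higher in all experiments was 2, against 10.2% of all genes. It was 1 without the 2.5 kb either side (5.66% of all genes), 1 with read-1 ends (4.66%) and 1 with PETs between chromosomes (4.36%). At an adjusted p under 0.01 it was 1 (6.59%), and with 5 kb either side 4 (10.9%). Without the part shared with neighbours (chosen after seeing the data) it was 1 (10.2%). Leaving out experiment 1, 2 or 3 gave 2, 6 and 3 members, against 15.8%, 23.3% and 11.2% of all genes. The share of all genes thus moved with most of these settings as well. The median density in experiment 1 was 4.03 with PETs between chromosomes. The share of ends at starts was 23.9%, 13.4% and 11.2% in experiments 1, 2 and 3 with 500 bp either side. Contacts numbered 8 without the 2.5 kb either side. Leaving out an experiment gave 4 to 13 contacts over 3 to 7 members, the lowest without experiment 3. The cause of these changes was not tested. Collapsing near duplicates within 2 bp removed 1.93% of PETs in experiment 1, 11 PETs in experiment 2 and 175 in experiment 3. So few removed PETs could change little in experiments 2 and 3. The number of members higher in all experiments stayed at 2, against 10.2% of all genes, and the contacts at 14. No paired analysis was possible because no column names a library or a replicate. The 9 ends of Igfbp1 in experiment 3 and the single PETs of each contact limit what the depth can show.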
